A study of Mus musculus with 4 samples.

Results

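The cell cycle genes described here are 41 genes that peak in DNA replication or in mitosis, 18 of them assigned to S phase and 23 to G2/M. They were taken by symbol from a list drawn up with earlier results of these data known, the rule itself uses no measured value, and all 41 were found among the 32285 gene rows of a single-cell table of esophageal immune cells. The cells are live CD45+ cells (CD45 is carried by immune cells) of 10 mice with induced eosinophilic esophagitis (an allergic disease in which eosinophils enter the esophageal wall), 5 wild-type (WT) and 5 with Il20rb knocked out (KO). Il20rb encodes a receptor chain through which IL-20 and its relatives IL-19 and IL-24 signal. The ears of all 10 mice were treated daily for 14 days with 1 nmol of MC903, a vitamin D analogue, together with ovalbumin (OVA). From day 14 they drank water with 1.5 g OVA per litre, on days 15 and 17 each received 50 mg OVA by gavage, and the tissue was taken on day 18. WT animals thus carried the same treatment as KO animals, and no untreated mice were sampled. The sources used here give no strain, age, sex, removed part of Il20rb or restriction of the knock-out to a cell type. Cells of each animal carried their own hashtag antibody before pooling, sorting and loading on 2 wells, so each well holds both genotypes.

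Dividing cells copy their DNA in S phase and separate it in mitosis, and the genes for these steps are switched on in turn. The S members encode the MCM helicase that opens the DNA (Mcm2 to Mcm7) with its loaders Cdc6 and Cdt1 and its partner Gins2, the sliding clamp Pcna and its partner Pclaf, the nucleotide enzymes Rrm1, Rrm2 and Tyms, the cyclins Ccne1 and Ccne2, and the chromatin factors Hells and Uhrf1; many S-phase genes are known targets of E2F transcription factors. The G2/M members encode mitotic kinases (Cdk1, Plk1, Aurka, Aurkb, Bub1, Bub1b), cyclins (Ccna2, Ccnb1, Ccnb2), parts of the anaphase machinery (Cdc20, Ube2c), centromere proteins (Cenpa, Cenpe, Cenpf), spindle and cytokinesis proteins (Kif11, Kif20a, Kif23, Tpx2, Nusap1, Prc1, Birc5), topoisomerase Top2a and the proliferation marker Mki67. Many G2/M genes are known to carry a CHR (cell cycle genes homology region) and CCAAT boxes near their start. In tissues, lymphocytes, dendritic cells (DC) and resident macrophages can divide locally, whereas mature neutrophils have left the cycle.

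The promoters of the members show the difference between S and G2/M genes in their letters. RefSeq promoters (build GRCm38.p6, 250 bases before to 50 after the annotated start) matched 15 of the 18 S members and 19 of the 23 G2/M members. An E2F word (TTTCCCGC, TTTGGCGC, TTTCGCGC or TTTGCCGC, on either strand) stood in 9 S promoters (60%) and 1 G2/M promoter (5.26%), against 2.60% of the promoters of 27025 genes. A CHR word (TTTGAA or TTCGAA, on either strand) stood in 2 S promoters (13.3%) and 15 G2/M promoters (78.9%), against 21.7% of all. CCAAT, on either strand, stood in 66.7% of S, 89.5% of G2/M and 41.1% of all promoters. No word of one motif can lie within a word of another, and a match is a run of letters, not a measured binding site. In each phase group, the promoters of the 2 members with the most UMIs (captured RNA molecules) among those holding the word are shown, with the E2F word (Pclaf, chr9:65890073-65890352, plus strand; Mcm3, chr1:20820283-20820562, minus strand) or the CHR word (Ube2c, chr2:164769679-164769958, plus strand; Top2a, chr11:99024160-99024439, minus strand) in capitals, from 250 bases before the start to 30 after it.
Pclaf: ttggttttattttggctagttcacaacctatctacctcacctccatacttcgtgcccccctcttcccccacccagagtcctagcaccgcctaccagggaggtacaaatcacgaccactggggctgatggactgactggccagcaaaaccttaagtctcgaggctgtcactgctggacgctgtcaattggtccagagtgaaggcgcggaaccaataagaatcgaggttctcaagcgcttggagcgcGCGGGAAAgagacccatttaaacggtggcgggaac
Mcm3: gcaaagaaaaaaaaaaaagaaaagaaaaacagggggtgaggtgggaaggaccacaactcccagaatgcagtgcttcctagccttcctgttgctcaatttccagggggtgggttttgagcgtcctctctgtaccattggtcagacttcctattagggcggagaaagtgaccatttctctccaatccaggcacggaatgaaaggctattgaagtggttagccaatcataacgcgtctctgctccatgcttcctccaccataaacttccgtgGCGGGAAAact
Ube2c: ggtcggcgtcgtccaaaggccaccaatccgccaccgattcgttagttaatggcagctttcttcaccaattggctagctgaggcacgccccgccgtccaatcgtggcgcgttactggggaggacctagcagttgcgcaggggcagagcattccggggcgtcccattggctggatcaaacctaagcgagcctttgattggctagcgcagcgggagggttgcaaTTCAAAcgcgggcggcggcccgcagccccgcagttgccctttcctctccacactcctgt
Top2a: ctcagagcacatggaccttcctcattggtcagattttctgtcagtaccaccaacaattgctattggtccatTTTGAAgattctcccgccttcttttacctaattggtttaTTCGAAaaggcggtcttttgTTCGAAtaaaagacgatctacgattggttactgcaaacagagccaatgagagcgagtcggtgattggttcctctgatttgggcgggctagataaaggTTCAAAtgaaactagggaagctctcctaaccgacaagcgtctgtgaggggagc
The E2F word of Pclaf began 5 bases before the annotated start and the first of Mcm3 began 19 bases after it, while another of Mcm3 lay past the stretch shown. The CHR word of Ube2c began 29 bases before the start. Top2a held 4 CHR words, which began between 179 and 23 bases before its start. Pcna, the S member with the most UMIs, held no E2F word of these 4 in the window.

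The table held 6054 cells, 2885 of well 1 and 3169 of well 2, with 1000 to 52182 UMIs per cell and a median of 5269, and 2 barcodes occurred in both wells. Clusters of cells were made without the cell cycle genes and named from markers as "X-like", since these names were rebuilt here and may differ from those of the authors. Raised markers numbered 10 to 13 of 14 in T-like clusters, 10 of 12 in the ILC2-like cluster (group 2 innate lymphoid cells), 10 of 10 in cDC1-like and neutrophil-like and 11 of 11 in migratory DC-like clusters. They were fewer, 4 to 5 of 11, in clusters like cDC2 (the other kind of conventional DC), 5 to 11 of 14 in macrophage-like and 4 to 8 of 12 in monocyte-like clusters, so those names are weaker. Another 1042 cells lay in 6 clusters that met no naming rule and are called by their leading gene. Il20rb had 16 UMIs in all cells, 10 in WT and 6 in KO cells, too few to check the genotype labels.

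The 41 members had 33076 UMIs, 14659 of S and 18417 of G2/M members, which is 937 CPM, the usual unit in which the UMIs of a gene or list are scaled to the total UMIs of the same cells. These UMIs were concentrated: 738 cells (12.2%) with 4 or more different members held 84.7% of them, and 2400 cells (39.6%) had no member at all. Up to 36 of the 41 members were found in the same cell. The 738 cells were deeper than the others (median 9957 against 4750 UMIs), and 8.81% of them had a doublet score in the top 5% of their well, against 3.95% of the others. The part of depth and doublets in the number of members per cell was not tested.

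G2/M members were found almost entirely in cells with several other members, and S members less strictly. Of a G2/M member's UMIs, a median over members of 96.5% lay in cells with 4 or more other members, from 72.2% for Cenpa, the centromeric histone, to 99.0% for Ccna2, the cyclin of S and G2. Of an S member's UMIs the median was 77.6%, from 41.3% for Pcna to 98.1% for Rrm2, the regulated subunit of ribonucleotide reductase. In all, 19 of 23 G2/M members and 4 of 18 S members were above 90%. Pcna, which also serves DNA repair, had 30.3% of its UMIs in cells with no other member, against 1.16% for Top2a and 2.86% for Mki67.

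Lineages differed in the summed level of the members, which was taken per animal with 10 or more cells of the lineage. T-like, ILC2-like, cDC1-like and cDC2-like cells were the high named lineages. ILC2-like cells had 2104 ± 2721 CPM (SD, n = 10 animals), T-like cells 2011 ± 1551 (n = 9), cDC1-like cells 1793 ± 927 (n = 9) and cDC2-like cells 1469 ± 756 (n = 10). Macrophage-like cells lay lower, at 677 ± 408 (n = 10). Monocyte-like cells had 183 ± 29.9 (n = 9), migratory DC-like cells 159 ± 40.6 (n = 4) and neutrophil-like cells 159 ± 113 (n = 7). Lineages are parts of the same libraries, and no test was made between them.

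With lineages from the clusters, the steps down to monocyte-like cells held within animals. Those from high lineages to macrophage-like cells held in most animals. cDC2-like cells were above monocyte-like cells in 9 of 9 animals (median ratio 7.54), T-like in 8 of 8 (7.57), cDC1-like in 8 of 8 (9.95) and ILC2-like in 9 of 9 (5.16, the lowest 1.02). cDC2-like cells were above macrophage-like cells in 10 of 10 animals (median ratio 2.03, the lowest 1.08), and macrophage-like above monocyte-like cells in 9 of 9 (2.97, the lowest 1.15). T-like cells were above macrophage-like cells in 8 of 9 animals (2.17, the lowest 0.753) and ILC2-like cells in 8 of 10 (2.15, the lowest 0.303). In KO animal 3, cDC1-like cells lay below macrophage-like cells, at 1205 against 1372 CPM. Neighbours at the top did not differ beyond their spread: ILC2-like cells were above T-like cells in 4 of 9 animals, T-like above cDC1-like in 4 of 8 and cDC1-like above cDC2-like in 4 of 9. At the bottom, monocyte-like cells were above migratory DC-like cells in 3 of 4 animals and above neutrophil-like cells in 6 of 7, with median ratios of 1.05 and 1.11. These steps are those of the clusters. With lineages taken instead from a gate on marker UMIs, the mean level was 722 CPM in monocyte-like and 661 in macrophage-like cells, so macrophage-like cells did not lie above monocyte-like cells there.

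**Figure D1:**
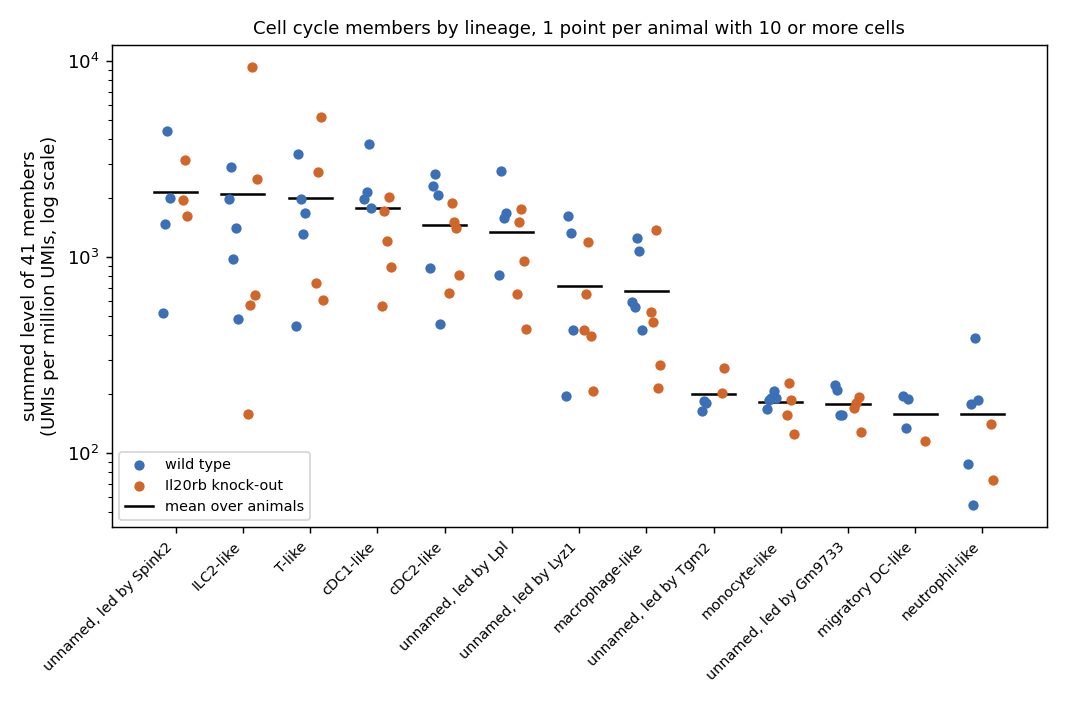
Summed level of the 41 members in each lineage, in CPM on a log scale, with 1 point per animal that has 10 or more cells of the lineage, coloured by genotype, and a line at the mean over animals. The means of the high named lineages lie between 1469 and 2104, that of macrophage-like cells at 677, and those of monocyte-like, migratory DC-like and neutrophil-like cells between 159 and 183.

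The spread between animals was wide in the high lineages. ILC2-like cells ranged from 159.6 CPM in KO animal 1 to 9400.2 in KO animal 3, which had 10 such cells, 5 of them with 580 of their 585 member UMIs. Without that animal the ILC2-like mean was 1293 CPM. T-like cells ranged from 447 in WT animal 1 to 5209 in KO animal 3. Over all animals, the 5 richest cells held 41.4% of the member UMIs of T-like (245 cells) and 36.6% of ILC2-like cells (310). They held 23.3% in cDC1-like (208), 22.1% in macrophage-like (981), 9.03% in cDC2-like (932) and 4.33% in monocyte-like cells (1481). In the unnamed clusters led by Lyz1 (217 cells) and Spink2 (141 cells) they held 41.7% and 37.0%. Means with the larger shares thus rest on few cells, in lymphoid cells and outside them. The largest share of all member UMIs came from cDC2-like cells, 35% from 19.7% of all UMIs. Macrophage-like cells gave 14.1%, cDC1-like cells 10.4%, and monocyte-like cells 4.19% from 24.0% of all UMIs.

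Unnamed clusters spanned the same range. The cluster led by Spink2 had 2163 ± 1256 CPM (n = 7) and was above ILC2-like cells in 5 of 7 animals. The cluster led by Lpl had 1351 ± 717 (n = 9) and was above that led by Lyz1, at 718 ± 529.9 (n = 9), in 9 of 9. The clusters led by Tgm2 and by Gm9733 lay near the monocyte-like level, at 201 ± 41.9 (n = 5) and 178 ± 30.9 (n = 8).

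Lineages with too few cells per animal were pooled, with exact Poisson 95% intervals; all intervals given here cover counting error only. Plasma-like cells, 18 of 20 from WT animal 3, had 1901 CPM (1735 to 2078), and 5 cells held 96.7% of their member UMIs. B-like cells, 66 of 100 from the same animal, had 559 CPM (483 to 643). Mast-like cells had 452 CPM (280.1 to 692, 20 cells) and NK-like cells 328 (237 to 442, 35 cells).

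Single members were mostly far lower in monocyte-like than in cDC2-like cells. Exceptions were Pcna and Cdt1, with ratios of cDC2-like to monocyte-like means of 1.09 and 1.13, and to a lesser degree Cdc6 (1.76). The mean over animals was highest in T-like cells for 11 of 18 S members and in ILC2-like cells for 1. For G2/M members it was highest in the Spink2 cluster for 12 and in ILC2-like cells for 9 of 23. The ILC2-like means include KO animal 3, with a summed level of 9400.2 CPM from 10 cells. Highest lineages were not counted without that animal. Top2a, which untangles replicated DNA, had 211 ± 404 CPM in ILC2-like, 182 ± 165 in T-like, 110.4 ± 85.4 in cDC1-like, 93.2 ± 63.6 in cDC2-like, 32.3 ± 38.7 in macrophage-like and 2.34 ± 2.27 in monocyte-like cells. Mki67 had 189 ± 332, 115 ± 117, 99.5 ± 94.0, 99.3 ± 70.7, 29.3 ± 33.6 and 3.17 ± 5.59 CPM in the same order. SDs were near or above the means in lymphoid, macrophage-like and monocyte-like cells, and for Mki67 in cDC1-like cells, so animals differed widely there.

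Ube2c, an enzyme of the anaphase-promoting complex, had 149.7 ± 110.3 CPM in cDC1-like, 122 ± 81.5 in cDC2-like, 62.6 ± 66.6 in T-like and 1.88 ± 2.85 in monocyte-like cells. Pclaf had 198 ± 222 CPM in T-like, 144 ± 113 in cDC1-like, 76.8 ± 54.4 in cDC2-like and 1.53 ± 1.59 in monocyte-like cells. Both were low in monocyte-like cells. Mcm3 had 57.4 ± 44.5 CPM in T-like, 37.0 ± 18.9 in cDC2-like, 30.8 ± 11.9 in macrophage-like and 4.63 ± 3.51 in monocyte-like cells, so its step lay between macrophage-like and monocyte-like cells.

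Pcna had 162 ± 70.1 CPM in T-like, 119.7 ± 60.8 in cDC1-like, 111 ± 30.7 in macrophage-like, 109.9 ± 41 in ILC2-like, 105 ± 27.8 in cDC2-like, 95.7 ± 24.1 in monocyte-like, 67.3 ± 27.9 in neutrophil-like and 58.6 ± 18.7 in migratory DC-like cells. Neighbours in that order did not differ beyond their spread. In neutrophil-like cells Mki67 had 26.7 ± 24.1 CPM and Top2a 1.11 ± 2.93. With each cell thinned at random to 1000 UMIs, 16 of 23 G2/M and 11 of 18 S members had no UMI in neutrophil-like cells, while 6.44% of those cells had a UMI of Pcna and 1.53% a UMI of Mki67.

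**Figure D2:**
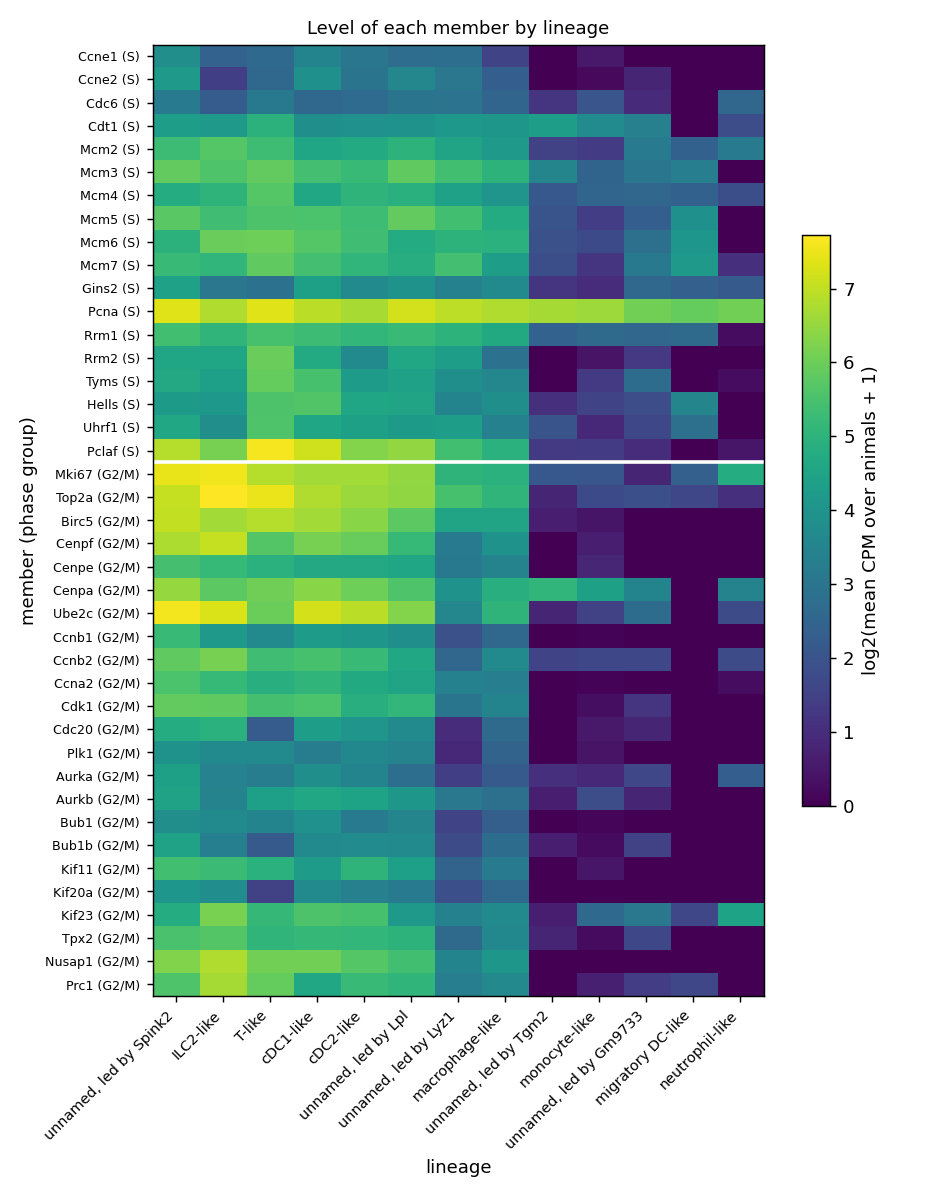
Mean level over animals of each of the 41 members in 13 lineages, as log2(CPM + 1) by colour, with S members above the white line and G2/M members below it. Most members are dark from the Tgm2 column to the neutrophil-like column, where Mki67 in neutrophil-like cells (26.7 CPM) is among the exceptions, and Pcna stays between 58.6 and 162 CPM in every column.

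Shares of cells at equal depth gave the same steps from the high lineages to macrophage-like and to the low lineages. Among the high lineages the order differed, with cDC1-like cells first and ILC2-like cells last. With every cell thinned to 1000 UMIs, 2 or more different members were found in 23.6% of cDC1-like cells (49 of 208, exact binomial 95% interval 18.0 to 29.9), 18.5% of cDC2-like (16.0 to 21.1), 13.5% of T-like (9.46 to 18.4), 11% of ILC2-like (7.72 to 15.0) and 6.93% of macrophage-like cells (5.42 to 8.71). The share was 1.08% in monocyte-like cells (0.619 to 1.75) and 0 of 80 in migratory DC-like cells, which allows up to 4.51%. Neutrophil-like cells, taken as the background, had 0.339% (2 of 590, 0.0411 to 1.22). Whether free RNA gave their member UMIs was not tested. Unthinned, the shares were 59.1% in cDC1-like (median depth 8444 UMIs), 35.9% in T-like (3114), 17.4% in monocyte-like (5628) and 1.53% in neutrophil-like cells (1817).

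A stricter mark, Mki67 and Top2a in the same unthinned cell, was met by 236 cells (3.90%). They included 91 cDC2-like, 29 macrophage-like, 27 cDC1-like, 16 T-like, 13 ILC2-like and 2 monocyte-like cells, and 26 of the Lpl and 15 of the Spink2 cluster. As a share this was 13% of cDC1-like, 9.76% of cDC2-like and 0.135% of monocyte-like cells.

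Clusters of the same lineage differed as well. Among cDC2-like cells the pooled level ran from 363 CPM (325 to 404) in the cluster led by Ifitm1, Clec10a and Ly6a to 2618 (2537 to 2701) in that led by Cd209a, Mgl2 and Cd209d, and 4.58% against 35.8% of their cells had 4 or more members. Ube2c, Cenpf, Birc5, Mki67 and Nusap1 were among the 10 genes most raised in the latter cluster, Pclaf among those of the cluster led by Klrd1, and Ube2c and Mki67 among those of the Spink2 cluster. These clusters thus lay partly along cycling although the cell cycle genes were left out of the clustering. Among macrophage-like cells it ran from 266 CPM (201 to 345) in the cluster led by Zmynd15 and Mmp12 to 1484 (1429 to 1539.6) in that led by Cx3cr1, C1qa and Apoe. Among T-like cells the lowest was the cluster led by Ctla4, Tnfrsf4 and Ikzf2, genes of regulatory and activated T cells, with 773 CPM (645 to 919). The highest T-like cluster was led by Xcl1, Ctsw and Nkg7, genes of cytotoxic cells, with 2482 CPM (2294 to 2682). All 6 monocyte-like clusters lay between 139 and 215 CPM.

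S and G2/M members took different shares in different lineages. Of the member UMIs of all cells, 55.7% were of G2/M members. Pooled over animals the G2/M share was 71.0% in ILC2-like (exact binomial interval 69.0 to 72.9), 64.4% in cDC2-like (63.5 to 65.3), 56.9% in cDC1-like (55.2 to 58.5), 50.2% in T-like (47.9 to 52.6), 45.8% in macrophage-like (44.4 to 47.3) and 20.6% in monocyte-like cells (18.5 to 22.8). Named lineages with few member UMIs lay lower still, at 19.0% in mast-like (5.45 to 41.9), 14.0% in NK-like (5.30 to 27.9) and 10.0% in migratory DC-like cells (4.42 to 18.8). UMIs of a cell come together, so animals differed by far more than these intervals.

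Per animal the balance was the log2 of S over G2/M UMIs, below 0 where G2/M prevails. It was -0.58 ± 0.79 in cDC2-like (SD, n = 10), -0.31 ± 1.57 in cDC1-like (n = 9), 0.05 ± 2.38 in ILC2-like (n = 9), 0.60 ± 1.44 in T-like (n = 9) and 1.10 ± 1.36 in macrophage-like cells (n = 10). Monocyte-like cells, at 2.04 ± 0.67 (n = 8), lay on the S side in every animal measured, from 0.97 to 3.10, and Pcna gave 690 of their 1101 S UMIs. ILC2-like cells lay far to either side: WT animals 1 to 4 had -1.52, -1.82, -1.09 and -0.84 and WT animal 5 had 3.83, and KO animals 2 to 5 had 2.32, -2.54, 3.17 and -1.09. The 2 genotypes overlapped.

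**Figure D3:**
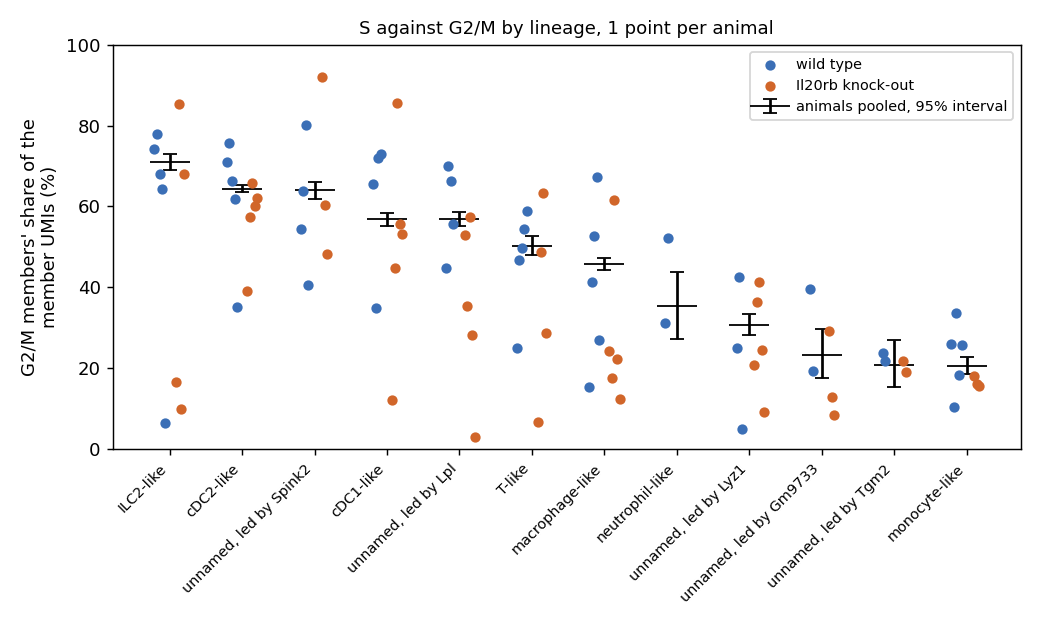
Share of the member UMIs that belong to G2/M members, in percent, by lineage, with 1 point per animal that has 10 or more cells and 20 or more member UMIs, coloured by genotype, and the pooled value with its 95% interval in black. Pooled shares of the named lineages shown run from 71.0% in ILC2-like to 20.6% in monocyte-like cells, and animals of a lineage spread well beyond the interval.

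Single cells were mostly on the S or the G2/M side rather than between. Of 719 cells with 5 or more member UMIs, 402 (55.9%) had under 33.3% of them from G2/M members, 211 (29.3%) had over 66.7%, and 106 were mixed. Mostly G2/M cells made up 38.6% of 241 such cDC2-like, 37.1% of 35 ILC2-like, 28.7% of 80 cDC1-like, 20.6% of 34 T-like and 18.7% of 123 macrophage-like cells. In the Lyz1 cluster 31 of 42 such cells were mostly S and 3 mostly G2/M. Pcna, found in every lineage, counts on the S side and gave 735 of the 2530 S UMIs of macrophage-like cells. Its part in the mostly S cells was not tested.

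**Figure D4:**
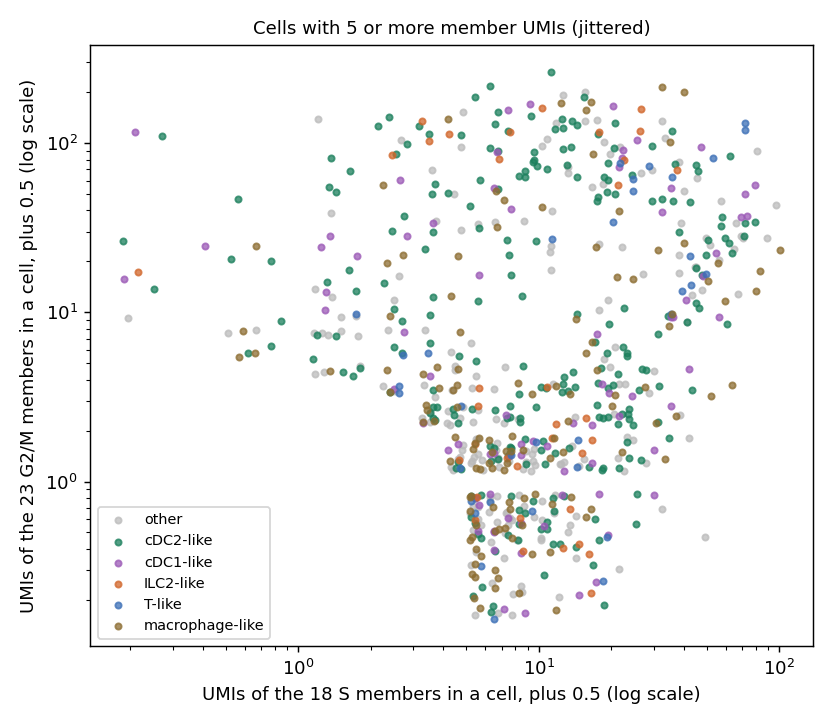
UMIs of the 18 S members (horizontal) and the 23 G2/M members (vertical) in each of 719 cells with 5 or more member UMIs, both axes logarithmic with 0.5 added and points jittered, coloured by lineage. Cells rich in G2/M UMIs lie along the top and cells with S UMIs and few G2/M UMIs at the lower right, and each of the 5 coloured lineages has cells in both regions.

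The genotypes were first compared over all CD45+ cells of each animal. In edgeR's quasi-likelihood test 0 of 41 members were called at an adjusted p under 0.05, where 0.0393% of the 10175 genes tested were. At an unadjusted p under 0.05 the count was also 0, where 697 of the 10175 genes were. DESeq2 called 0 of 41 members and 0.727% of all genes, with 0 members and 627 genes at an unadjusted p under 0.05. The summed level was 406, 1284, 1637, 1457 and 632 CPM in WT animals 1 to 5 and 369, 1397, 1738, 783 and 315 in KO animals 1 to 5. The groups overlapped, at 1083 ± 536 in WT and 920.4 ± 629 in KO (SD, n = 5 each). Within wells they were 1169 ± 598 and 934 ± 729.5 in well 1 and 994 ± 509 and 900.2 ± 552 in well 2. For 0 of 41 members did the animals of the genotypes not overlap, against 1.45% of 9631 genes with a mean of at least 4 CPM. In these sums, fewer cycling cells and less RNA per cycling cell cannot be told apart. Shares of cells were also taken per animal. Cells with 4 or more members made up 12.9 ± 6.26% in WT and 14.6 ± 9.23% in KO animals, and the genotypes overlapped. With cells thinned to equal depth, 2 or more members were found in 9.18 ± 4.52% and 9.25 ± 5.99%. Over all CD45+ cells the mean share was thus not lower in KO. The RNA per cycling cell was not tested.

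The level of an animal moved with its share of monocyte-like and neutrophil-like cells, the low lineages. The 3 animals with the lowest levels were KO animal 5, KO animal 1 and WT animal 1, with 57.3%, 52.9% and 65.2% of such cells, and the 2 highest, KO animal 3 and WT animal 3, had 3.32% and 11.6%. Outside those lineages the level was 1276 ± 500.4 CPM in WT and 1043 ± 546 in KO, and the same 3 animals were the lowest, at 547, 547 and 687. A fit without those cells, chosen after the data were seen, called 0 of 40 members and 28 of 9561 genes. An unadjusted p under 0.05 was found for 1 member and 879 genes.

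Fold changes of 31 of 41 members were below 0 (KO under WT), with a median log2 of -0.28 against 0.01 over all genes tested. The mean CPM was lower in KO for 22 of 23 G2/M and 10 of 18 S members. Members share animals and cells, so these counts are not independent observations. The count and the median rest on single animals: 23 of 41 members were below 0 without WT animal 3 (median -0.04) and without KO animal 5 (-0.07), and 25 without KO animal 1 (-0.04). Without KO animal 3 the count was 34 (median -0.74) and without KO animal 2 it was 41 (-0.57). The smallest p was that of Aurka, the spindle-pole kinase, with 2.85, 8.36, 11.5, 10.5 and 5.55 CPM in WT and 1.06, 6.42, 8.31, 2.95 and 2.79 in KO animals 1 to 5. WT and KO values overlapped, and the log2 fold change was -0.91 ± 0.48 (SE, edgeR adjusted p = 0.804). Cenpa followed at -0.59 ± 0.43 (edgeR adjusted p = 0.871) and Aurkb, the kinase of chromosome alignment and cytokinesis, at -0.64 ± 0.57 (edgeR adjusted p = 0.905).

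Mki67 had 17.9, 89.2, 97.2, 124 and 23.9 CPM in WT animals and 13.9, 80.2, 138, 36.6 and 11.5 in KO animals. Top2a had 14.2, 89.8, 109, 112 and 33.3 CPM in WT and 14.5, 77.8, 139, 42.5 and 10.6 in KO animals. Both were lowest in the animals with most monocyte-like and neutrophil-like cells, in either genotype, and had log2 fold changes of -0.33 ± 0.73 and -0.33 ± 0.72 (edgeR adjusted p = 0.984 for each). Left-out animals moved Mki67 from -0.95 (without KO animal 3) to -0.03 (without WT animal 4) and Top2a from -0.94 (without KO animal 3) to -0.07 (without KO animal 5). Pcna was more even, with 81.2, 107, 131, 118 and 107 CPM in WT and 94.4, 132, 118, 111 and 78.3 in KO animals. Its log2 fold change was 0.03 ± 0.11 (edgeR adjusted p = 0.998).

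The 3 members with the most UMIs in each phase group were Pcna, Pclaf and Mcm3 for S and Ube2c, Top2a and Mki67 for G2/M. Pclaf (1831 UMIs) had a log2 fold change of -0.31 ± 0.73, Mcm3 (1006) of 0.05 ± 0.42 and Ube2c (2191) of -0.29 ± 0.66. The S members with the fewest were Ccne1 (145), at 0.16 ± 0.59, and Cdc6 (162), at 0.41 ± 0.53. The G2/M members with the fewest were the checkpoint kinase Bub1 (189), at -0.41 ± 0.83, and the kinesin Kif20a (199), at -0.64 ± 0.68. Differences of the size of these errors were not detectable with 5 animals per genotype. Larger ones could be missed too, as Aurka, at -0.91 ± 0.48, did not pass the test. The signs of Pcna, Mcm3, Ccne1 and Cdc6 changed when single animals were left out.

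**Figure D5:**
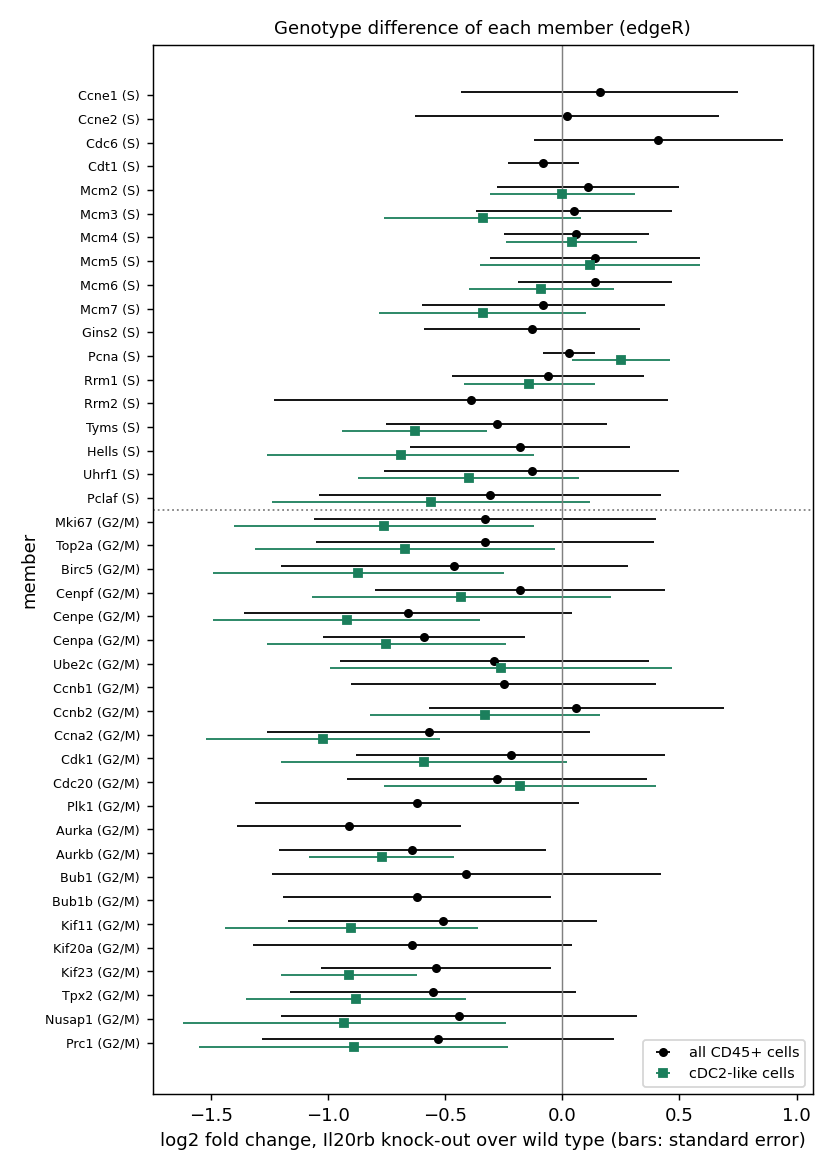
Log2 fold change of each member, KO over WT, over all CD45+ cells (circles, 41 members) and in cDC2-like cells (squares, the 29 members with enough counts). Bars are standard errors derived from the test's F value. Most points lie left of 0, among them 31 of the 41 circles, and no member passed the test in either fit.

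Within lineages, 0 members were called in each of the 10 lineages and clusters that could be fitted. cDC2-like cells allowed the widest test. There 0 of 29 members were called, where 0.0817% of 6117 genes were. An unadjusted p under 0.05 was found for 2 members and 277 of those genes. A fold change below 0 was found for 26 members, with a median log2 of -0.59 against 0.00 over all genes tested. The median was -0.35 without WT animal 3 and -0.29 in well 2 alone. DESeq2 called 0 members, with 1 member and 181 genes at an unadjusted p under 0.05. For 0 of 9 members with a mean of at least 50 CPM did the genotypes not overlap, against 1.28% of such genes.

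Kif23, a kinesin of cytokinesis, had the smallest p in cDC2-like cells, with 34.7, 70.9, 69.6, 78.2 and 28.5 CPM in WT and 15.3, 45.7, 35, 32.6 and 24.8 in KO animals 1 to 5. The 3 highest animals were WT, the other 2 WT animals lay among the KO values, and the log2 fold change was -0.91 ± 0.29 (edgeR adjusted p = 0.796). Aurkb was next at -0.77 ± 0.31 (edgeR adjusted p = 0.964), then Tyms, the thymidylate synthase, at -0.63 ± 0.31 (edgeR adjusted p = 0.999). Without a filter on low counts Kif23 alone of the members passed (edgeR adjusted p = 0.0123), with 0.240% of 14600 genes called. With cells pooled over the animals of a genotype, the largest cDC2-like cluster in WT was that led by Klrd1 (36.1% of cells, pooled level 2040.4 CPM). In KO it was that led by Cd209a, Mt2 and Tnfsf9 (35.6%, 1299.6 CPM). The part of this mix in the fold changes was not tested.

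In cDC1-like cells 0 of 11 members were called, where 0.271% of 2211 genes were, and 10 had a fold change below 0, with a median of -1.03. The median was -0.38 (11 of 15 members below 0) without WT animal 4 and -0.44 (9 of 14) with at least 20 cells per animal. In edgeR and in DESeq2, 1 member had an unadjusted p under 0.05, as did 175 and 124 of the 2211 genes. DESeq2 called 0 members. Top2a had 114, 109.5, 300.4 and 171 CPM in WT animals 2 to 5 and 11.4, 91.8, 52.0, 104 and 39.9 in KO animals 1 to 5. Every WT value was above every KO value, and the log2 fold change was -1.30 ± 0.47 (edgeR adjusted p = 0.512). Pclaf, with 164, 329, 300.4 and 146 against 0, 139.9, 26.0, 142 and 49.9 CPM, also did not overlap (-1.50 ± 0.66, edgeR adjusted p = 0.632). Birc5, survivin of the chromosomal passenger complex, overlapped (-1.24 ± 0.56, edgeR adjusted p = 0.632). Top2a and Pclaf were 2 of 10 members with a mean of at least 50 CPM, where 2.50% of such genes did not overlap. Without a filter on low counts Top2a (edgeR adjusted p = 0.000314) and Birc5 (edgeR adjusted p = 0.0476) passed, with 0.401% of 12232 genes called. WT animal 1, with 9 cDC1-like cells, did not enter.

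In the Lpl cluster 0 of 11 members were called, where 0.0289% of 3459 genes were, and 9 had a fold change below 0, with a median of -0.97. An unadjusted p under 0.05 was found for 4 members and 203 of the 3459 genes in edgeR. In DESeq2, which called 0 members, it was found for 5 members and 132 genes. Without the cells of the top 5% of doublet scores 3 of 7 members were below 0, with a median of 0.01. There 0 members and 166 of 2592 genes had an unadjusted p under 0.05. Top2a had 63.4, 213, 136 and 112 CPM in WT animals 2 to 5 and 56.9, 77.2, 82.8, 35.8 and 0 in KO animals 1 to 5, a fold change of -1.27 ± 0.42 on the log2 scale (edgeR adjusted p = 0.719). The lowest WT animal lay among the KO values. Ube2c (-2.35 ± 0.78, edgeR adjusted p = 0.722) and Nusap1, a spindle protein (-1.45 ± 0.55, edgeR adjusted p = 0.722), also overlapped. Without a filter on low counts Top2a, Birc5 and Prc1 passed (edgeR adjusted p = 0.00398, 0.0182 and 0.00795), with 0.116% of 12903 genes called.

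In lymphoid cells the side of 0 on which the fitted changes lay rested on KO animal 3. With that animal, all 5 members tested in ILC2-like cells and all 3 in T-like cells had a higher level in KO. In either lineage 0 were called (0.330% of 1515 and 0% of 1109 genes called), and DESeq2 called 0 members. An unadjusted p under 0.05 was found for 0 members in edgeR or DESeq2. Among all genes tested in ILC2-like and T-like cells, it was found for 136 and 88 in edgeR and 88 and 64 in DESeq2. Without KO animal 3, all 5 members tested in ILC2-like cells (median log2 -1.14) and all 3 in T-like cells (-0.16) were lower in KO. With the marker gate 5 of 6 were lower in ILC2-like cells (-0.96, 4 KO animals), but 1 of 4 in T-like cells (0.71, 3 KO animals). Without the top 5% of doublet scores 0 of 5 were lower in ILC2-like cells and 0 of 5 in T-like cells. Top2a in ILC2-like cells had 118, 259, 120.4, 96.9 and 6.4 CPM in WT and 0, 0, 1334, 0 and 178 in KO animals 1 to 5. KO animal 3 was far above all others and 3 KO animals were at 0 (log2 fold change 1.43 ± 1.23, edgeR adjusted p = 0.814). Mki67 had the same form, with 1109 CPM in KO animal 3 (1.29 ± 1.15, edgeR adjusted p = 0.814), and Pcna was at 0.23 ± 0.32 (edgeR adjusted p = 0.883). In T-like cells Top2a was at 0.51 ± 0.92, Pclaf at 0.50 ± 1.10 and Pcna at 0.03 ± 0.39 (edgeR adjusted p = 0.964, 0.989 and 0.996). Whether lymphoid and dendritic lineages differ in the genotype effect was not tested.

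Macrophage-like cells gave 0 called of 5 members (0.0532% of 5642 genes called). An unadjusted p under 0.05 was found for 0 members in edgeR and DESeq2, and for 268 and 225 of the genes. Pcna was at -0.34 ± 0.21 (edgeR adjusted p = 0.949), Mcm3 at -0.33 ± 0.30 (edgeR adjusted p = 0.972) and Mcm6 at 0.11 ± 0.27 (edgeR adjusted p = 0.992). With cells pooled over the animals of a genotype, the largest macrophage-like cluster in WT was that led by Cx3cr1, C1qa and Apoe (32.6%). In KO it was that led by Retnla and Fxyd2 (35.5%). Their pooled levels were 1484 and 351 CPM, and the part of this mix in the fold changes was not tested. In monocyte-like cells only Pcna had enough counts, at -0.10 ± 0.22 (edgeR adjusted p = 0.863), where 3.44% of 4761 genes were called. Pcna was also the only member tested in the Gm9733 cluster (0.01 ± 0.40, edgeR adjusted p = 0.995, 0.216% of genes called) and in the Lyz1 cluster (-0.94 ± 0.39, edgeR adjusted p = 0.724, 0.0439% called). In the Spink2 cluster 0 of 8 were called (0.0617% of 1622 genes), with Cenpa (0.79 ± 0.79), Cenpf (1.02 ± 1.11) and Pclaf (-0.95 ± 1.08) at the smallest p (edgeR adjusted p = 0.977 for each).

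Summed over members, the genotypes overlapped in each named lineage that was fitted. The level was 2430.2 ± 919.5 CPM in WT (n = 4) and 1284 ± 596 in KO (n = 5) for cDC1-like cells and 1681 ± 955 and 1257 ± 510.3 (n = 5 each) for cDC2-like cells. Macrophage-like cells had 782 ± 362 and 573 ± 465, and T-like cells 1765 ± 1075 (n = 5) and 2319.7 ± 2154 (n = 4). The S to G2/M balance overlapped too. Over all cells its log2 was -0.33 ± 0.60 in WT (-0.90 to 0.35) and 0.13 ± 0.70 in KO (-0.91 to 0.99). It was -0.75 ± 0.97 and -0.41 ± 0.62 in cDC2-like and 0.64 ± 1.36 and 1.57 ± 1.34 in macrophage-like cells. Of the cells with 5 or more member UMIs, 33.3% of 420 WT and 23.7% of 299 KO cells were mostly G2/M. These cells were pooled over animals and are not replicates, so the 2 shares give no genotype difference. Per animal, G2/M members gave 43.9 to 65.1% of the member UMIs in WT and 33.4 to 65.3% in KO.

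Other cell cycle genes, listed by role, had 0 calls among 182 tested over all CD45+ cells in edgeR, where 0.0393% of the 10175 genes were called. The 51 other replication genes tested had 40 fold changes below 0 (median log2 -0.13) and the 89 other mitosis genes 74 (median -0.30). The 12 G1 regulators had 9, the 12 cell cycle inhibitors 6 and the 18 transcription factors 10. Trp53inp1, a p53-induced gene on the inhibitor list, had the smallest p, with 16.0, 16.7, 38.1, 18.2 and 19.4 CPM in WT and 6.0, 12.4, 13.3, 10.1 and 8.11 in KO animals. All WT values were above all KO values (log2 -1.11 ± 0.27, edgeR adjusted p = 0.258). The genotypes did not overlap for 1.45% of 9631 genes with a mean of at least 4 CPM. Next was the G1 cyclin Ccnd1, with 101, 147, 104, 117 and 132 CPM in WT and 152, 169.7, 145, 246 and 212 in KO animals. The highest WT and the lowest KO animal overlapped narrowly (log2 0.70 ± 0.17, edgeR adjusted p = 0.265).

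A single gene of these lists was called within a lineage, 1 of 38 tested in monocyte-like cells, where 3.44% of all genes were called. Pttg1, the securin that restrains the separation of sister chromatids until anaphase, had 66.2, 93.9, 62.0, 79.9 and 39.4 CPM in monocyte-like cells of WT animals 1 to 5. It had 128, 193, 139 and 167 CPM in those of KO animals 1, 2, 4 and 5. KO animal 3, with 8 such cells, did not enter. Every KO value was above every WT value, as for 9.77% of genes with a mean of at least 50 CPM there, and Pttg1 was higher in KO by 1.24 ± 0.22 on the log2 scale (edgeR adjusted p = 0.0120). The call was lost with lineages taken from a gate on marker UMIs (0.86, edgeR adjusted p = 0.829) and without KO animal 5 (1.12, edgeR adjusted p = 0.0893), and it held under the other settings (edgeR or DESeq2 adjusted p = 7.20e-07 to 0.0460). Top2a had 2.34 CPM in the same cells. With cells pooled over the animals of a genotype, the largest monocyte-like cluster in WT was that led by Mmp19 (34.8%). In KO it was that led by Ccl12 and Cxcl10 (36.3%).

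The genes outside the lists whose pattern was most like that of Mki67 were sought over 106 sums of a lineage in an animal. By Pearson correlation of log2(CPM + 1) they were Cdkn3 (0.80), Diaph3 (0.76), Knstrn (0.74), Dlgap5 (0.73) and Neil3 (0.69). The other G2/M members correlated with Mki67 at 0.56 (Cenpa) to 0.85 (Ccna2), with a median of 0.76, and 16 S members at 0.27 (Cdt1) to 0.71 (Uhrf1), with a median of 0.51. The sums share animals and libraries and differ in depth, so these values are descriptions.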

How the data were processed

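Gene-by-cell UMI counts, raw and whole, were deposited as 1 table, and the name of each cell states its well, hashtag and genotype, per the file headers. Software listed in the submitters' processing notes, with no role stated, is R 4.0.5 and Cell Ranger 6.0.1, and the build is mm10. The sources used here do not give hashtag calling, cell filters, annotation release or strand use. The animal, known from its hashtag, was the replicate, and UMIs per animal ranged from 1805883 to 5666994. Levels of different genes were not compared.

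Members, lists and tests were chosen with earlier results of these data known. Cells were clustered (scanpy 1.11.5, igraph 0.11.9, 2000 variable genes, 30 principal components, 15 neighbours, Leiden resolution 2) without 246 listed cell cycle genes. Another 224 genes, histone genes and genes that follow the members across cells with a correlation over 0.2, were left out by a choice made after seeing the data, and none is a marker. Names were given to the 37 clusters from 202 marker genes, for 20 cell types, where 3 or more and at least 1 in 3 of a type's markers were raised and no other type had more markers among the 10 most raised genes. No cell was removed as a doublet. Genes named with values were Mki67, Top2a and Pcna, the members with the most and fewest UMIs, those called or with the 3 smallest p in a fit, other cell cycle genes called or with the 2 smallest p, and the 5 genes most like Mki67. Members outside this rule, named for a range or an exception, were chosen after their values were seen.

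UMI counts were summed per animal over all cells, and over lineages with 10 or more cells in 3 or more animals per genotype. They were fitted by edgeR 4.0.16 in R 4.3.3 (filterByExpr, TMM scaling, robust quasi-likelihood test) with Benjamini-Hochberg adjustment over all genes tested and a threshold of 0.05. The SE of an edgeR fold change was not estimated directly. It was taken as the size of the log2 fold change divided by the square root of the test's F value, and is uncertain near 0. The code was tested on simulated data. Alternatives were DESeq2 1.42.0, RLE scaling, no filter, no robust option, each well, each animal left out, removal of the top 5% of doublet scores, 20 cells, and a gate on 2 or more marker genes.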

Additional observations from a re-analysis of the deposited data

Results flagged for a closer look

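In 5 of 62 groups of animals examined, a single animal stood apart from the others of its genotype by Dixon's criterion, which chance alone meets in about 1 of 20 groups. KO animal 3 had 9400.2 CPM of the members in ILC2-like cells, where the other KO animals had 159.6 to 2524, from 10 cells. It also had 1372 CPM in macrophage-like cells, where the others had 215 to 526. WT animal 5 had a log2 of S over G2/M UMIs of 3.83 in ILC2-like cells, from 71 S and 5 G2/M UMIs, where the other WT animals had -1.82 to -0.84. Over all CD45+ cells, Cdc6 was at 8.02 CPM in WT animal 3 (others 2.41 to 4.01) and at 14.4 CPM in KO animal 2 (others 1.68 to 5.05).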

How the results depend on the processing

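No paired analysis was possible because the replicate numbers of the RNA and hashtag libraries name the same wells and cells, and hashtag numbers pair no WT with a KO animal. Over all CD45+ cells 0 members were called under each of 18 alternatives, 1 of them chosen after seeing the data. Within lineages 6 were called without a filter on low counts: Top2a and Birc5 in cDC1-like cells (0.401% of all genes called), Kif23 in cDC2-like cells (0.240%), and Top2a, Birc5 and Prc1 in the Lpl cluster (0.116%), all lower in KO. Leaving out an animal gave 0 to 2 calls: Cenpa in monocyte-like cells (202 of 5282 genes called) and Prc1 in the Lpl cluster (5 of 3673) without WT animal 2, both lower in KO, and Mki67 in the Spink2 cluster without WT animal 4 (4 of 1444), higher in KO. The cause was not tested. In well 1 alone the log2 fold changes of Pcna and Mcm3 over all cells turned to -0.04 and -0.03. Without single animals Pcna ran from -0.04 to 0.09, Mcm3 from -0.22 to 0.31, Ccne1 from -0.40 to 0.62 and Cdc6 from -0.27 to 0.83, in each case lowest without KO animal 2 and highest without WT animal 3. With cell cycle genes kept in the clustering, 183 cells formed an unnamed cluster led by Ube2c and the level was 483 CPM in cDC2-like, 541 in ILC2-like, 379 in macrophage-like and 3165 in T-like cells. In well 2 alone the ILC2-like level was 824 CPM, and the T-like balance was -0.59, against 1.13 in well 1. With the marker gate, 2142 cells were monocyte-like in place of 1481, with a level of 722 CPM and 5.68% of cells with 2 or more members. Unthinned, mean shares over animals were 35.9% in ILC2-like, 38.9% in T-like, 57.9% in cDC1-like, 43.7% in cDC2-like, 34.3% in macrophage-like, 16.2% in migratory DC-like, 18.5% in monocyte-like and 1.25% in neutrophil-like cells, and with 3 or more members at 1000 UMIs the macrophage-like share was 3.48%. The monocyte-like balance was 1.00 as a difference of mean log2 values. The wide SD between animals leaves large moves within it, so stability of levels and balances was not judged by it. Depth limits single members in lineages: outside cDC2-like cells 1 to 11 of 41 passed the filter.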
